A study of Mus musculus with 6 samples.

Results

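Genes of the germ cell and piRNA programme were followed in mouse embryonic stem cells (mESC) that had lost the 3 TET enzymes. The set holds 40 genes named for their roles in germ cells, of which 39 were listed among the 22380 gene identifiers of the processed files, and *Tdrd5* was not analysed here. Genes were matched by Ensembl identifier to their mouse symbol. RNA came from 3 *Ctrl* and 3 *Tet iTKO* mESC lines, each line a cell population grown from a different embryo. Lines of both groups carried a CreERT2 transgene driven by the ubiquitin C promoter and a Cre-activated H2B-EGFP reporter in the *Rosa26* locus, and *Tet iTKO* lines were in addition homozygous for floxed *Tet1*, *Tet2* and *Tet3* alleles. Both groups were given 1 µM 4-OHT, which activates CreERT2, for 2.5 days and were then grown for 4 days without it on feeder fibroblasts in 2i medium. At day 6.5, living cells that were EGFP positive, CD326 positive and negative for the fibroblast marker Thy1 were sorted, so that *Ctrl* cells had also recombined the reporter.

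Germ cells protect their genome from transposons with PIWI proteins, which are guided by short RNAs called piRNAs. Precursor transcripts are handed to the processing machinery by helicases, cut by nucleases and trimmed, and Tudor domain proteins bring PIWI proteins and their partners together in granules beside mitochondria. Many genes of this programme are kept silent outside the germ line by repressive complexes and by DNA methylation at their promoters, and naive mESC, which have low DNA methylation, express part of them. TET enzymes oxidise 5-methylcytosine and thereby oppose DNA methylation.

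Values are normalized counts, that is, reads per gene divided by a size factor of the library and rounded. They summed to between 4210784 and 4219665 per *Ctrl* library and between 3964824 and 3996522 per *Tet iTKO* library, and 13431 to 13539 genes against 14024 to 14363 genes had a value above 0. Whole-gene *Tet1* had 696, 682 and 716 in *Ctrl* against 787, 895 and 753 normalized counts in *Tet iTKO* lines, *Tet2* had 249, 170 and 230 against 233, 268 and 211, and *Tet3* had 28, 13 and 13 against 10, 3 and 3. These values do not separate floxed from other exons and so do not check the deletion. The 8 mESC markers were all measured, with a summed value of 21607 to 22249 in *Ctrl* and 17779 to 18743 in *Tet iTKO* lines. Among them 4 passed as lower and 2, *Esrrb* and *Klf4*, as higher. The sum is dominated by *Dppa5a*, with means of 11225.7 in *Ctrl* and 8573.0 in *Tet iTKO* lines, and *Pou5f1*, with 5489.7 and 4488.7. Once GC content and transcript length were corrected for, 2 were lower and 1 was higher, namely *Dppa5a* (log2 fold change 0.15, limma adjusted p = 0.0015). The summed value of 9 fibroblast markers was 326 to 338 in *Ctrl* and 528 to 600 in *Tet iTKO* lines, and the collagen genes *Col1a1*, *Col1a2* and *Col3a1* passed as higher and carried most of the rise, of which *Col1a1* no longer passed once GC content and transcript length were corrected for (limma adjusted p = 0.11). The other 2 tested markers, *Thy1* and *Acta2*, had means of 39 and 49 in *Ctrl* against 35 and 45.3 in *Tet iTKO* lines and did not pass. Of the 4 with too few reads to test, *Lum* and *Dcn* had means of 3.67 and 6.67 against 1.67 and 3, and *Fbn1* of 1.67 against 10.3. That of the 6 listed markers of 2-cell-like cells was 10 to 23 in *Ctrl* and 187 to 208 in *Tet iTKO* lines. Of the 5 listed primed epiblast markers, 4 were tested and all 4 passed as higher, namely *Otx2*, *Dnmt3b*, *T* and *Lef1*. Once GC content and transcript length were corrected for, 3 were higher and *Dnmt3b* no longer passed (limma adjusted p = 0.9). Of the 5 primitive endoderm markers, 2 were tested. *Gata4* passed as higher, but not once so corrected (limma adjusted p = 0.11), and *Sox7* did not pass. Part of these markers moved with the groups, and their part in the results below was not tested.

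Of the 39 genes listed, 24 reached a mean of 10 normalized counts over the 6 libraries and were tested. With limma and Benjamini-Hochberg adjustment over all 10524 tested genes, 8 of the 24 were lower in *Tet iTKO* mESC at an adjusted p under 0.05 (33.3%), 2 were higher (8.33%) and 14 passed in neither direction. Over all tested genes, 18.4% were lower and 16.4% were higher. Among all genes the split of calls was 1731 higher and 1934 lower, so that 47.2% of calls were higher, and once GC content and length of the transcript were corrected for it was 1018 higher and 2077 lower, or 32.9% higher. The median log2 fold change of the 24 genes was -0.06, against 0.01 over all tested genes. Without the filter on low values, the median of the 37 genes of the set that had any reads was 0.10, against 0.08 over all 16062 genes so fitted. Calls in the set thus went in both directions, but the higher ones were less stable. In the alternative fits given below, *Mov10l1* lost its higher call in 7 of 16 and *Kit* in 8 of 17. The lower call held in every alternative for 5 of the 8 lower genes. Of the lower genes, 4 had log2 fold changes of -1 or less, namely *Gtsf1*, *Dazl*, *Sohlh2* and *Prdm1*. That is 16.7% of the tested genes of the set, whereas 1.3% of all tested genes were called with such a decrease. In the other direction, 1 of the 24 genes and 521 of all 10524 tested genes were called with a log2 fold change of 1 or more. The set was chosen with earlier results of these data known, so these shares only describe it. In these bulk samples, fewer cells with a transcript and less of it per cell cannot be told apart.

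**Figure D1:**
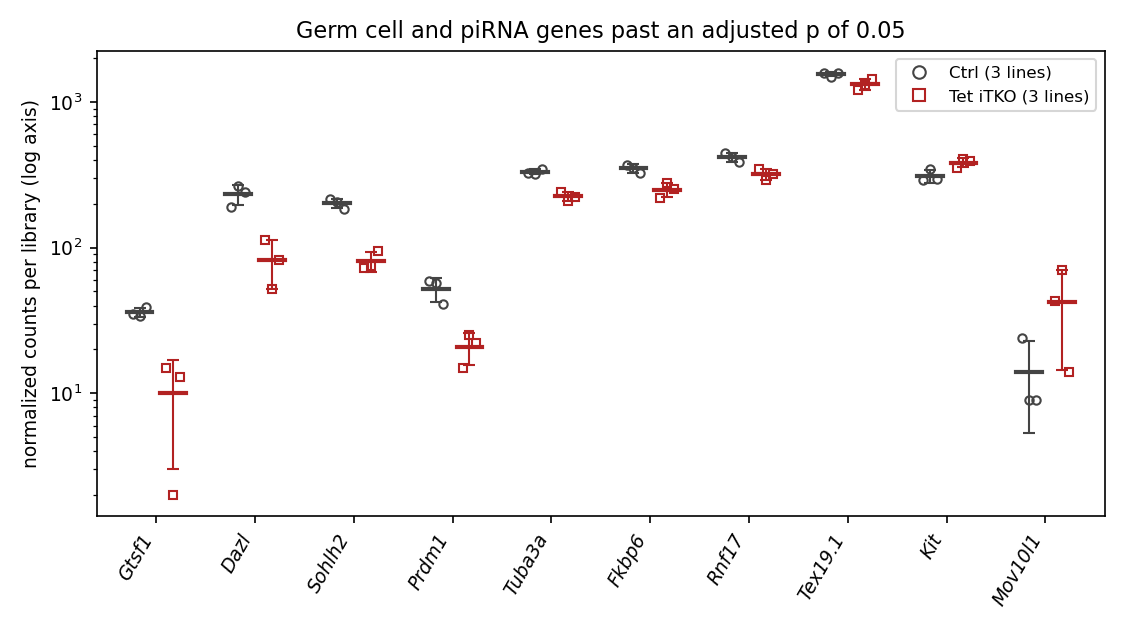
Normalized counts per library (log axis) of the 10 germ cell and piRNA genes with an adjusted p under 0.05, with 3 *Ctrl* lines as circles and 3 *Tet iTKO* lines as squares. Thick bars are group means and thin bars are the SD. The groups do not overlap for the 8 lower genes or for *Kit*, whereas for *Mov10l1* the lowest *Tet iTKO* line, at 14, lies below the highest *Ctrl* line, at 24.

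*Dazl* (ENSMUSG00000010592.7) encodes an RNA-binding protein that controls translation of germ cell mRNAs. It had 191, 264 and 240 in *Ctrl* against 113, 52 and 82 normalized counts in *Tet iTKO* lines. All 3 *Tet iTKO* lines were lower than any *Ctrl* line, at 22.4% to 48.8% of the *Ctrl* mean. Group means were 232 ± 37.2 (SD, n = 3) and 82.3 ± 30.5 (SD, n = 3), which gave a log2 fold change of -1.54 (SE 0.19, limma adjusted p = 4.3e-08 by Benjamini-Hochberg).

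*Sohlh2* (ENSMUSG00000027794.4) encodes a basic helix-loop-helix transcription factor of differentiating spermatogonia and early oocytes. It had 215, 205 and 185 in *Ctrl* against 72, 75 and 95 normalized counts in *Tet iTKO* lines. The 3 *Tet iTKO* lines were close to one another and all far below the *Ctrl* lines. Means of 202 ± 15.3 (SD, n = 3) and 80.7 ± 12.5 (SD, n = 3) made a log2 fold change of -1.32 (SE 0.16, limma adjusted p = 4.3e-08).

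*Prdm1* (ENSMUSG00000038151.6) encodes BLIMP1, a transcriptional repressor needed to specify primordial germ cells. Its 59, 57 and 41 normalized counts in *Ctrl* compare with 15, 25 and 22 in *Tet iTKO* lines. The groups did not overlap, and the mean went from 52.3 ± 9.87 (SD, n = 3) to 20.7 ± 5.13 (SD, n = 3). This is a log2 fold change of -1.31 (SE 0.33, limma adjusted p = 0.002).

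*Gtsf1* (ENSMUSG00000022487.8) encodes a small zinc finger protein that PIWI proteins need to silence transposons. It had 35, 34 and 39 normalized counts in *Ctrl* lines, which were nearly equal, and 15, 2 and 13 in *Tet iTKO* lines, of which the second was much the lowest. Its log2 fold change was -2.08 (SE 0.51, limma adjusted p = 0.0014), and -1.30 without *Tet iTKO* replicate 2, a value that still passed. With values this low, the size of the change depends on 1 line.

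The promoters of these 4 genes are shown with that of *Ddx4*, a gene of the set that did not pass the test in either direction, because CpG sites are the substrate of the methylation that TET enzymes oppose. The libraries hold RNA only, so methylation of these promoters was not measured in them. Each RefSeq window of GRCm38.p6 runs from 250 bases before to 50 bases after the annotated start of the gene, read 5′ to 3′ on its own strand, with every CpG in capitals. The windows are chr17:50293571-50293870 on the minus strand for *Dazl* and chr3:55181794-55182093 on the plus strand for *Sohlh2*. They are chr10:44458699-44458998 for *Prdm1*, chr15:103430378-103430677 for *Gtsf1* and chr13:112652261-112652560 for *Ddx4*, all 3 on the minus strand.
Dazl: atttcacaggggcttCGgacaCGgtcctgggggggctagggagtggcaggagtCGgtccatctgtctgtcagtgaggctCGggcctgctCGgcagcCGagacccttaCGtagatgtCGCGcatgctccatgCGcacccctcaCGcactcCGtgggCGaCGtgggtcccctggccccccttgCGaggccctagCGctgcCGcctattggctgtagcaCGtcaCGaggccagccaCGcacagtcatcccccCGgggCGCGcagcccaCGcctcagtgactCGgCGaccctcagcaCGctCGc
Sohlh2: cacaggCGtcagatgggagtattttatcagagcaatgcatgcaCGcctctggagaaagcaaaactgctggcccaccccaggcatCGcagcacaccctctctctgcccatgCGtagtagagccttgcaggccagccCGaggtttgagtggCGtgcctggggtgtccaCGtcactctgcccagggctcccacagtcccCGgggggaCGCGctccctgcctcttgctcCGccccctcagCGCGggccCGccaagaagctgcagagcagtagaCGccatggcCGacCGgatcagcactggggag
Prdm1: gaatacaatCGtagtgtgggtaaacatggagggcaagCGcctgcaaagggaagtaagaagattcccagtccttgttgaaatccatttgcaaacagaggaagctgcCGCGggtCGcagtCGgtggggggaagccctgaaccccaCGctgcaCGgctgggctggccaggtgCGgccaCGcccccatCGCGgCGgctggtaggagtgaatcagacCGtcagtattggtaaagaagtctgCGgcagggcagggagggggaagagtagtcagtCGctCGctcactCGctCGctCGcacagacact
Gtsf1: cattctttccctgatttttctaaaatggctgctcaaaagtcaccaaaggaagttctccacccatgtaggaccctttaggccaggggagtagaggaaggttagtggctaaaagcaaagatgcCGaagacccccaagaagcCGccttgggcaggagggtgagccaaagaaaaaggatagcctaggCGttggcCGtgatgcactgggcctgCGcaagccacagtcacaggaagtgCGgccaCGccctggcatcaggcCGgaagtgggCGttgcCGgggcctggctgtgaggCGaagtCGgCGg
Ddx4: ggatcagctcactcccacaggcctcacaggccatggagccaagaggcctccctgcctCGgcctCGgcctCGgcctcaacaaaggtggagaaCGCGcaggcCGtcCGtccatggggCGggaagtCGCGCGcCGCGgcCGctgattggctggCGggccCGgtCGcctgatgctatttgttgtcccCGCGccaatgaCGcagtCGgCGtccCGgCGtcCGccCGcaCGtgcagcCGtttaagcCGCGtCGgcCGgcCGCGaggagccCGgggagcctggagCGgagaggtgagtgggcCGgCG
They held 28 CpG for *Dazl*, 17 for *Sohlh2*, 20 for *Prdm1*, 13 for *Gtsf1* and 38 for *Ddx4*.

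The other 4 lower genes fell by less. *Tuba3a* (ENSMUSG00000067702.5), which encodes an alpha-tubulin of the testis, had 326, 321 and 346 in *Ctrl* against 241, 210 and 222 normalized counts in *Tet iTKO* lines. The groups stood well apart, with a log2 fold change of -0.56 (SE 0.11, limma adjusted p = 0.00011). Its near-identical copy *Tuba3b* had 0, 5 and 9 against 1, 2 and 1, and since unique alignments were counted, reads that the copies share are missing from both. *Fkbp6* (ENSMUSG00000040013.7) encodes a co-chaperone of piRNA biogenesis. It had 370, 354 and 323 in *Ctrl* against 219, 276 and 253 normalized counts in *Tet iTKO* lines, again without overlap. The log2 fold change of *Fkbp6* was -0.49 (SE 0.11, limma adjusted p = 0.00063).

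*Rnf17* (ENSMUSG00000000365.7) encodes a RING finger and Tudor domain protein of male germ cells. Its values were 449, 416 and 384 in *Ctrl* and 346, 291 and 321 in *Tet iTKO* lines, so the groups did not overlap but lay close. A log2 fold change of -0.38 resulted (SE 0.10, limma adjusted p = 0.0027). *Tex19.1* (ENSMUSG00000039329.8), which restrains transposons in germ cells and is also expressed in pluripotent cells, had 1582, 1484 and 1580 in *Ctrl* against 1203, 1313 and 1431 normalized counts in *Tet iTKO* lines. It was the highest of the set in both groups and fell least of the 8, to 85% of the *Ctrl* mean, with a log2 fold change of -0.24 (SE 0.06, limma adjusted p = 0.0031). With quantile normalization its log2 fold change was -0.13 and it no longer passed (limma adjusted p = 0.093).

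Groups did not overlap, with *Tet iTKO* lower, for 8 of the 24 genes (33.3%), the same 8 that passed the test, against 22.9% of all tested genes. The lowest *Tet iTKO* line was replicate 1 for 4 of the 8 (*Fkbp6*, *Prdm1*, *Sohlh2* and *Tex19.1*) and replicate 2 for the other 4 (*Gtsf1*, *Dazl*, *Rnf17* and *Tuba3a*), so no single line was the lowest throughout. All 8 were called lower with the GC and length correction too, with log2 fold changes of -1.59 for *Gtsf1*, -1.42 for *Prdm1*, -1.26 for *Dazl* and -1.26 for *Sohlh2*. None of the 8 lost its call when any 1 of the 6 lines was left out.

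The 2 higher genes were *Mov10l1* and *Kit*. *Mov10l1* (ENSMUSG00000015365.8) encodes the RNA helicase that feeds precursor transcripts into piRNA processing. It had 24, 9 and 9 in *Ctrl* against 43, 70 and 14 normalized counts in *Tet iTKO* lines, so the groups overlapped. On the log2 scale the change was 1.41 (SE 0.47, limma adjusted p = 0.019), between 0.92 and 2.04 without 1 line, and it no longer passed without *Ctrl* replicate 2 or 3 or *Tet iTKO* replicate 1 or 2. *Kit* (ENSMUSG00000005672.6) encodes the receptor for stem cell factor, which primordial germ cells need to survive and migrate. Its 289, 348 and 294 normalized counts in *Ctrl* compare with 351, 405 and 392 in *Tet iTKO* lines, a narrow gap without overlap, and *Kit* was the only gene of the set so separated upward, 4.17% of those tested against 21.2% of all tested genes. The log2 fold change of *Kit* was 0.30 (SE 0.10, limma adjusted p = 0.02). With the GC and length correction it was 0.14 (limma adjusted p = 0.33). Its call did not hold without *Ctrl* replicate 1 or 3 or *Tet iTKO* replicate 2 or 3.

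**Figure D2:**
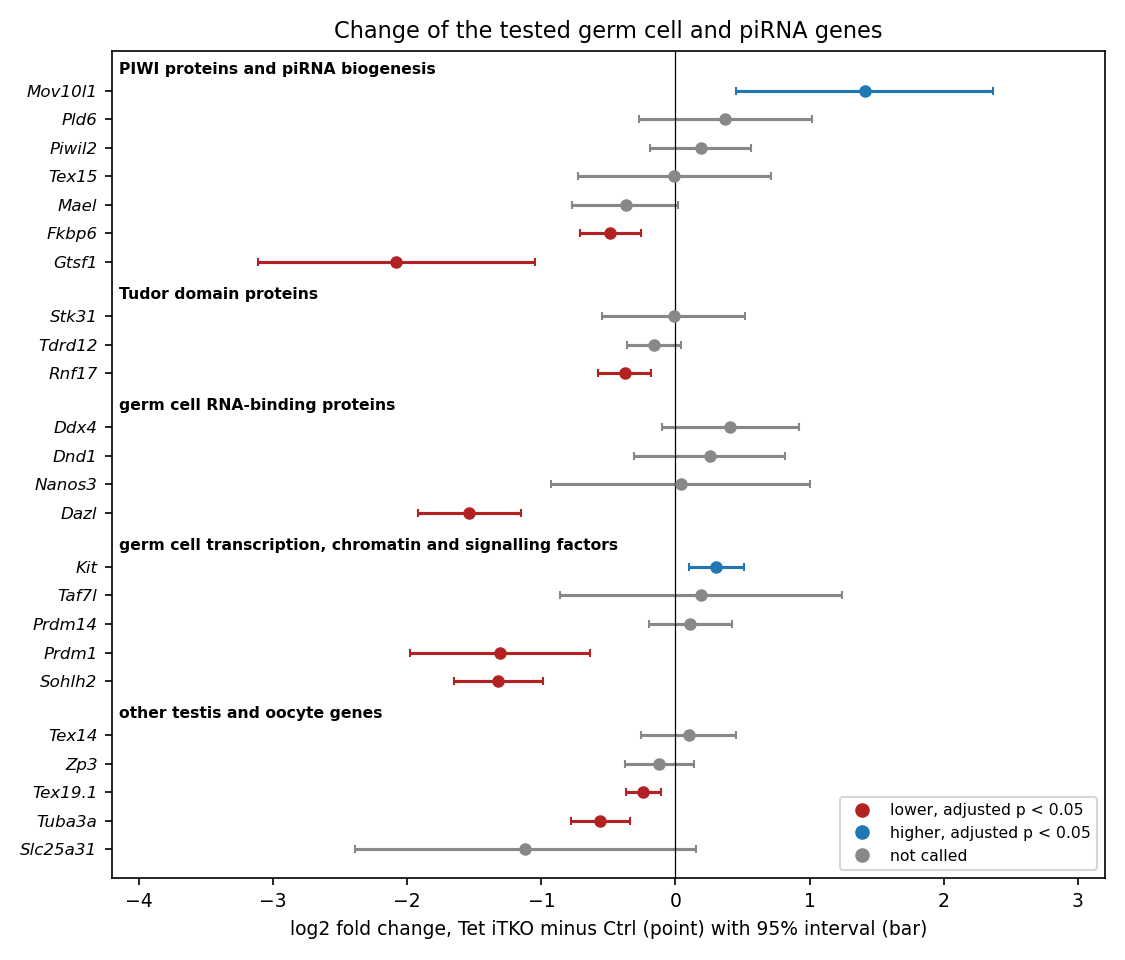
Log2 fold change (*Tet iTKO* minus *Ctrl*, points) with its 95% interval (bars) for the 24 tested germ cell and piRNA genes, in 5 groups by role. Lower genes occur in all 5 groups, and *Gtsf1*, at -2.08, and *Mov10l1*, at 1.41, stand at the ends of the range within the same group.

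Of the 11 genes for PIWI proteins and piRNA biogenesis, 7 were tested, 2 were lower (*Gtsf1* and *Fkbp6*) and 1 was higher (*Mov10l1*). *Piwil2*, the PIWI protein MILI and the only one of the 3 PIWI genes in the set with enough reads to test, had 83, 105 and 83 in *Ctrl* against 98, 101 and 108 normalized counts in *Tet iTKO* lines. These values overlapped, and the 95% interval of the log2 fold change ran from -0.19 to 0.56. *Pld6*, the mitochondrial nuclease of piRNA processing, had 27, 47 and 31 against 62, 47 and 30, with an interval from -0.27 to 1.02. *Mael*, which encodes the transposon-silencing protein Maelstrom, had 97, 123 and 141 against 68, 108 and 105, with an interval from -0.77 to 0.02 (limma adjusted p = 0.14). *Tex15*, needed for piRNA-guided silencing, had 28, 21 and 38 against 32, 30 and 23, and the order of the groups could not be told (log2 fold change -0.01, limma adjusted p = 0.99).

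Among the 8 listed Tudor domain genes, 3 were tested and *Rnf17* alone passed. *Tdrd12*, which encodes a Tudor domain helicase, had 361, 445 and 428 in *Ctrl* against 389, 370 and 340 normalized counts in *Tet iTKO* lines. The ranges overlapped, with a log2 fold change of -0.16 (95% interval -0.36 to 0.04, limma adjusted p = 0.21). *Stk31*, a Tudor domain protein with a kinase-like domain, had 65, 39 and 53 against 45, 56 and 52, with no difference beyond the spread between lines (limma adjusted p = 0.98).

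In the RNA-binding group, 4 of 6 genes were tested and *Dazl* alone passed. *Ddx4*, the germ cell helicase known as Vasa, had 84, 99 and 37 in *Ctrl* against 85, 79 and 110 normalized counts in *Tet iTKO* lines. *Ctrl* replicate 3 stood below the other 5 lines, and the log2 fold change of *Ddx4* was 0.41 (95% interval -0.10 to 0.92, limma adjusted p = 0.21) with it and -0.01 without it. *Nanos3*, a protein that keeps primordial germ cells alive, had 29, 7 and 25 against 21, 16 and 17, with widely spread *Ctrl* lines. *Dnd1*, which binds germ cell mRNAs, had 33, 39 and 59 against 55, 47 and 51 (limma adjusted p = 0.51). The *Dnd1* gene shares 140 exon bases with *Wdr55* on the opposite strand, which had 355 to 498 normalized counts, and reads of the 2 genes cannot be told apart there because the library protocol keeps no strand.

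Of the 7 transcription, chromatin and signalling factors, 5 were tested, with *Sohlh2* and *Prdm1* lower and *Kit* higher. *Prdm14*, a regulator of both primordial germ cells and naive pluripotency, had 160, 129 and 184 in *Ctrl* against 153, 157 and 199 normalized counts in *Tet iTKO* lines, which overlapped (limma adjusted p = 0.62). *Prdm1* and *Prdm14*, which act together in germ cell specification, thus had log2 fold changes of -1.31 and 0.11, and the difference between these changes was not tested. *Taf7l*, a germ cell variant of a general transcription factor subunit, had 22, 8 and 12 against 13, 25 and 10 (limma adjusted p = 0.81).

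Of the 7 other testis and oocyte genes, 5 were tested and *Tuba3a* and *Tex19.1* were lower. *Slc25a31*, the testis ADP/ATP carrier, had 22, 14 and 24 in *Ctrl* against 1, 21 and 18 normalized counts in *Tet iTKO* lines. The log2 fold change of *Slc25a31* was -1.12 (95% interval -2.39 to 0.15), and it was -0.00 without *Tet iTKO* replicate 1, the line with 1 normalized count. *Zp3*, a zona pellucida glycoprotein of the oocyte coat, had 231, 212 and 220 against 189, 185 and 241 (limma adjusted p = 0.51). *Tex14*, a component of the bridges between germ cells, had 97, 111 and 111 against 96, 127 and 120 (limma adjusted p = 0.71).

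**Figure D3:**
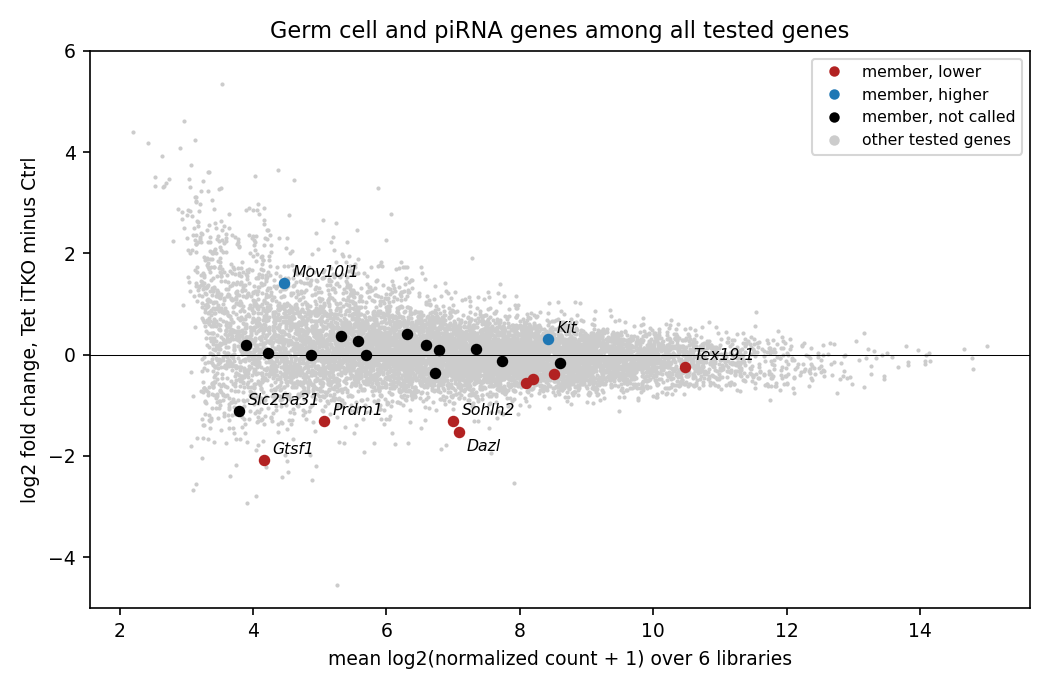
Log2 fold change (*Tet iTKO* minus *Ctrl*) against the mean log2(normalized count + 1) over the 6 libraries for all 10524 tested genes (grey) and the 24 germ cell and piRNA genes (large points). *Dazl*, *Sohlh2*, *Prdm1* and *Gtsf1* lie near the lower edge of the cloud at their level, and the genes not called lie within it, *Slc25a31* included.

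Of the 15 genes with a mean under 10 normalized counts, *Tdrd6* and *Figla* were at 0 in all 6 libraries. A further 8 did not exceed 5 in any library (*Piwil1*, *Piwil4*, *Henmt1*, *Tdrd1*, *Tdrd7*, *Tdrd9*, *Brdt* and *Zar1*). At this depth no difference was detectable for them. A pair of the low genes were nearly empty in the *Tet iTKO* lines. *Asz1*, which encodes a mitochondrial scaffold of piRNA processing, had 2, 14 and 7 in *Ctrl* against 0, 1 and 0 normalized counts in *Tet iTKO* lines. *Tex101*, a testis surface glycoprotein, had 6, 13 and 2 against 0, 1 and 0. With the filter removed, these were the only untested genes of the set to pass, with limma adjusted p of 0.021 for *Asz1* and 0.023 for *Tex101* over 16062 genes, and their fold depends on the pseudocount. *Tdrkh* had 9, 10 and 1 against 5, 9 and 18, and *Boll* 7, 9 and 3 against 5, 8 and 9, and both overlapped.

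Levels can be set beside each other only per length. Per kilobase of the longest GENCODE M21 transcript, *Tex19.1* had the highest mean, at 887 normalized counts in *Ctrl* and 754 in *Tet iTKO* lines. *Fkbp6* followed with 241 and 172, *Tuba3a* with 219 and 149, *Zp3* with 167 and 155 and *Tdrd12* with 113 and 100. *Dazl* went from 77.8 to 27.7 per kilobase and *Sohlh2* from 85.3 to 34.1, while *Prdm14*, which had 61.5 in *Ctrl*, had 66.2. *Piwil2* stood lower, at 18.4 and 20.8, and *Mov10l1* went from 3.39 to 10.2. The called genes thus came from across the range of levels.

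Promoter windows were found in RefSeq for 33 of the 39 genes. The window with most CpG of each gene held 3 to 39 CpG per 300 bases, with a median of 20. The median was 8 over all 27025 genes with a window and 23 over the 8334 tested ones, while 14 of the 33 were not tested. The 7 lower genes with a window had 12 to 32 CpG with a median of 17, and the 10 tested genes that passed in neither direction had 3 to 38 with a median of 21. Over all tested genes with a window, the medians were 21 for those called lower and 23 for those not called. *Dazl* with 28 CpG and *Gtsf1* with 13 both fell, and *Ddx4* with 38 and *Nanos3* with 3 were both not called. Over the 19 tested genes with a window, CpG count and log2 fold change had a Pearson correlation of 0.09 and a Spearman correlation of 0.14, given as a description of genes that share the same 6 libraries.

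**Figure D4:**
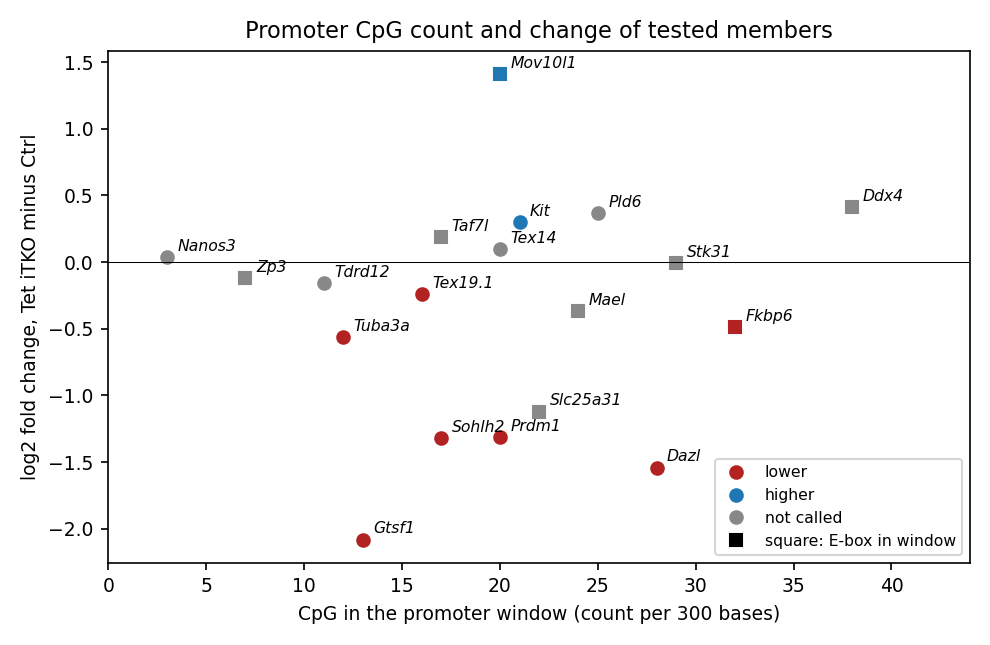
Log2 fold change (*Tet iTKO* minus *Ctrl*) against the number of CpG in the promoter window of 300 bases for the 19 tested germ cell and piRNA genes with a window. Squares hold the letters CACGTG in the window with most CpG, and lower genes run from 12 CpG (*Tuba3a*) to 32 (*Fkbp6*), across most of the range of the genes not called.

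Germline gene promoters are known for E-boxes bound by the MGA and MAX factors and for E2F sites bound by E2F6, both subunits of a repressive Polycomb complex. Letters were counted in the window with most CpG of each gene. The E-box letters CACGTG, which read the same on both strands, were there for 12 of the 33 genes (36.4%), against 11.2% of tested genes and 7.4% of all genes. Among them were *Mov10l1*, *Ddx4*, *Mael*, *Stk31*, *Zp3*, *Taf7l* and *Slc25a31*. Of the lower genes, *Fkbp6* alone held it, 1 of 7, whereas 6 of the 10 genes not called did. *Pld6*, not called, and *Boll*, not tested, held it only in another of their windows. The letters GCGGGA, searched on both strands, were in the windows with most CpG of 11 of the 33 genes (33.3%), against 40.2% of tested genes and 21.1% of all genes. *Tex19.1* and *Tuba3a* were the lower genes with them. In the sequences printed above, *Ddx4* has both sets of letters and *Dazl*, *Sohlh2*, *Prdm1* and *Gtsf1* have neither. *Tdrd12* and *Nanos3*, which were not called, have neither as well. Over all tested genes, CACGTG was in 11.4% of those called lower and 10.9% of those not called.

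Genes outside the set but of the same pathways were looked up from lists. Of 12 listed further piRNA genes, 8 were tested, 5 were lower and 1 was higher, with a median log2 fold change of -0.32. Over all tested genes, 18.4% were lower and 16.4% higher. The counts were the same with the GC and length correction, or 62.5% lower and 12.5% higher, against 19.7% and 9.67% of all genes so corrected. This list too was chosen with earlier results of these data known, so its shares only describe it. *Gpat2*, a mitochondrial acyltransferase of piRNA biogenesis, had 64, 99 and 64 in *Ctrl* against 17, 32 and 18 normalized counts in *Tet iTKO* lines (log2 fold change -1.74, limma adjusted p = 2.7e-05). *Morc1*, which silences transposons in the male germ line, had 646, 592 and 499 against 309, 316 and 285 (log2 fold change -0.92, limma adjusted p = 1.5e-09). *Adad2*, a testis RNA-binding protein, was higher, with 29, 32 and 39 against 102, 67 and 73 (log2 fold change 1.24, limma adjusted p = 0.0003). These 3 kept their direction and call in every alternative in which they were fitted.

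Of 18 genes for factors that repress germline genes, all tested, 4 were higher and 1 was lower, with a median log2 fold change of 0.06. Over all tested genes, 16.4% were higher and 18.4% lower. With the GC and length correction the list turned to 1 higher and 6 lower (5.56% and 33.3%, against 9.67% and 19.7% of all genes so corrected). Its median was then -0.04, so that no direction can be given for the list. *Setdb1*, a histone H3 lysine 9 methyltransferase, had 433, 381 and 363 in *Ctrl* against 494, 543 and 609 normalized counts in *Tet iTKO* lines (log2 fold change 0.48, limma adjusted p = 9.7e-05), and 0.29 after the GC and length correction. The de novo DNA methyltransferase genes *Dnmt3a* and *Dnmt3b* had log2 fold changes of 0.25 and 0.24, but -0.32 and -0.01 after that correction, so their direction depends on it. Of 12 further primordial germ cell genes, 10 were tested, and 3 were higher and 2 lower, against 16.4% and 18.4% of all tested genes. With the GC and length correction 2 were higher and 2 lower, or 20% each, against 9.67% and 19.7% of all genes so corrected. *Alpl* (0.02, limma adjusted p = 0.79) and *Sall4* (-0.11, limma adjusted p = 0.17) lost their calls and *Ifitm3* gained one (0.35, limma adjusted p = 6.3e-05). *Hesx1*, a homeobox gene, had 92, 104 and 99 against 40, 37 and 43 (log2 fold change -1.28, limma adjusted p = 3.2e-05), *Dppa3* had a log2 fold change of 0.31, or 0.82 so corrected, and *Tfap2c* of -0.27. None of the 11 listed further oocyte genes or the 12 spermatid genes had enough reads to test, and 9 of the spermatid genes were at 0 throughout.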

How the data were processed

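Processed values of 6 Smart-Seq2 libraries, read as pairs of 50 bases, were used. The authors aligned reads with STAR, kept unique alignments and counted them per gene with HTSeq 0.7.1. They divided the counts by DESeq2 size factors, and the submitters' processing notes name DESeq2 1.26.0, R 3.5.2 and mm9. As deposited, values carry the unit score: normalized counts rounded to whole numbers, not read counts, so no count model was fitted. Smart-Seq2 keeps no strand, while counting was set to be strand-specific.

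Of 22380 identifiers, 20775 had a symbol with length and GC content in GENCODE M21 (GRCm38). Coordinates printed are those of RefSeq promoter windows in GRCm38.p6. The test was limma 3.58.1 (lmFit, eBayes with trend, under R 4.3.3) between groups, on log2(normalized count + 1) of all genes whose mean reached 10, at a threshold of 0.05 after Benjamini-Hochberg adjustment. Fold changes are on that scale. Adding 1 shrinks the change of low genes, but a single line near 0 can enlarge it beyond the ratio of group means, as for *Gtsf1* and *Slc25a31*. All genes of the set are named, with values where a mean reaches 10. From each further list, at most the 3 called genes with the largest change are named. *Alpl*, *Sall4*, *Ifitm3*, *Dnmt3l*, *Gtsf1l* and *Prmt5* were added after their values were seen. The genes of the set, the further lists and the tests were chosen with earlier results of these data known. Promoters to print were picked after values were seen. Summaries were made in Python 3.11.15 (pandas 2.3.3).

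Alternatives were pseudocounts of 0.5 and 4, no filter, a mean of at least 50, eBayes without the trend, quantile normalization, trimmed means of M values, a replicate block, a loess correction (span 0.3) for GC content and length with and without the block, a fold threshold, and fits without each line. Replicate numbers stand for different embryos, so they do not pair the lines.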

Additional observations from a re-analysis of the deposited data

How the results depend on the processing

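In limma, the number of genes of the set that were lower was 5 without the variance trend and 4 with a log2 fold change of -1 or less, and it was within 1.5 times of 8 in the other alternatives. The number higher was 2, and it was 0 with no filter and without the trend. It was 1 with a mean of at least 50, with quantile normalization, with the GC and length correction, with that correction and the replicate block, and with a log2 fold change of 1 or more, and 0 to 1 without 1 line. Of all genes, 1075 were higher and 1217 lower without the trend, 1018 were higher with the GC and length correction, 1041 with that correction and the replicate block, and 521 higher and 137 lower had a log2 fold change of at least 1 in size.

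*Dazl*, *Sohlh2*, *Prdm1*, *Fkbp6* and *Tuba3a* passed in every fit in which they were tested. Without the trend, *Gtsf1* (adjusted p = 0.069), *Rnf17* (adjusted p = 0.054) and *Tex19.1* did not pass in limma. No called gene turned its direction in the 17 alternative fits, and none of the 14 tested genes that were not called became called, but with no filter the untested *Asz1* and *Tex101* passed, making 10 lower. Of the 14 genes not called, 7 turned. *Stk31* had a log2 fold change of 0.18 with the GC and length correction, also with the block, and *Tex14* had -0.01 in both. *Nanos3* had -0.00 with a pseudocount of 4 and -0.33 with quantile normalization, where *Taf7l* had -0.22. Without 1 line the ranges were -0.21 to 0.20 for *Tex15*, -0.20 to 0.16 for *Stk31*, -0.01 to 0.69 for *Ddx4*, -0.56 to 0.39 for *Nanos3*, -0.03 to 0.23 for *Prdm14* and -0.16 to 0.55 for *Taf7l*. The cause was not tested.

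With the replicate number as a block, 1762 genes were higher and 1980 lower, and the counts in the set were 2 and 8. Deviations of lines with the same number correlated at 0.001, -0.005 and -0.003. Tests of DESeq2 and edgeR were planned for read counts and were left out, because these values had been normalized and rounded. All 6 lines had reads on the Y-linked genes, so leaving out lines without them removed none. That fit, counted among the 17, therefore repeated the main one. The summed value of the 4 listed Y-linked genes was 615 to 652 in *Ctrl* and 388 to 398 in *Tet iTKO* lines. Among them *Eif2s3y* passed as lower, with 363, 344 and 375 against 182, 181 and 178 normalized counts (limma adjusted p = 5.6e-09). The other 3 did not pass. Why these genes differed between the groups was not tested. At 10 normalized counts and fewer, single reads set the fold change, and 3 lines a group cannot give an exact permutation p under 0.1.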
